A study of Mus musculus with 17 samples.

Results

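Transcripts of 33 mouse genes of the endoplasmic reticulum (ER), its chaperones and the unfolded protein response, were followed through oocytes and hippocampus in a study of maternal age and rapamycin. The members were taken by name, and all 33 were present among the 24491 genes counted in each of the 17 libraries. They comprise 3 stress sensors, 3 transcription factors, 6 chaperones of the HSP70 and HSP90 families with their cofactors, 3 J-proteins, 2 lectin chaperones, 7 disulfide isomerases and related oxidoreductases, 7 genes of ER-associated degradation and 2 feedback genes of the PERK branch. All mice were wild type and of the outbred CD1 strain. Oocytes arrested in the second meiotic metaphase, about 10 per library, came from females of 4 weeks (young, n = 2 libraries), from untreated females of 48 weeks (aged, n = 2) and from females of 48 weeks injected with rapamycin at 2 mg/kg from week 8 for 40 weeks (rapamycin, n = 3). All donors were superovulated with the gonadotrophins PMSG and hCG, at 5 IU of each in young females and 10 IU in both older groups, so that hormone dose and age cannot be told apart. Hippocampus came from female offspring of 40 to 44 weeks, born to young mothers (n = 4), untreated aged mothers (n = 3) or rapamycin-treated aged mothers (n = 3). The treated mothers had the same rapamycin regimen, 2 mg/kg from week 8 for 40 weeks.

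The ER folds secreted and membrane proteins with the help of the HSP70 chaperone BiP (Hspa5), the HSP90 chaperone GRP94 (Hsp90b1), the lectins calnexin and calreticulin, and protein disulfide isomerases. When unfolded proteins accumulate, IRE1 (Ern1), PERK (Eif2ak3) and ATF6 (Atf6) signal to the nucleus: IRE1 splices the mRNA of Xbp1, PERK slows translation and favours synthesis of ATF4, and ATF6 is cut to release a transcription factor, and together these raise chaperone and degradation genes. In oocytes the same machinery serves secretion of the zona pellucida and of growth factors, and in neurons it serves membrane and synaptic proteins.

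Rapamycin is an inhibitor of the mTOR kinase. Total counts per library ranged from 3912163 to 8334873 in oocytes and from 16434398 to 20220617 in hippocampus, and levels are given as CPM, that is, counts scaled to one common library size after normalisation within each tissue. At these depths, 3 counts correspond to 0.349 to 0.809 CPM in oocytes and to 0.151 to 0.187 CPM in hippocampus, a limit that covers counting error only. The 12 oocyte markers, among them Gdf9, Zp3 and Mos, summed to 29657 to 41731 CPM in oocytes, and the 9 neuronal markers to 11052 to 13347 CPM in hippocampus. The library labelled rapamycin 1 stood apart from the other oocyte libraries, with a correlation of 0.736 to 0.792 with the other 6 across genes, while each of those reached at least 0.942 with another one. Its 13 cumulus and granulosa cell markers summed to 135 CPM, against 15.0 and 15.5 CPM in the other rapamycin libraries, 2.70 and 6.29 CPM in aged and 6.63 and 10.0 CPM in young oocytes. Of these 13 markers 9 were highest in rapamycin 1, led by Inha (77.2 CPM) and Gja1 (31.5 CPM), while Fshr and Amh were at 0 there. Of the 12 oocyte markers, all detected in it, 11 were lowest in rapamycin 1, as Gdf9, at 302 CPM against 4928 to 9232 CPM in the other 6. Tcl1 was the exception, at 26457 CPM against 7557 to 10958 CPM, and made up most of that library's marker sum. Fold changes and counts of calls in oocytes are therefore given with and without rapamycin 1. The labels do not state that libraries of a group came from separate animals, so p-values measure the spread between these libraries only.

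Promoter sequence was examined first, because several members share a short regulatory element there. RefSeq promoter windows on GRCm38.p6, from 250 bases before to 50 bases after the transcription start, were matched for 28 of the 33 members, Derl2 and Txndc5 with more than 1 window. Hyou1, Hspa13, Manf, Atf6 and Derl1 had no window and were not searched. The ER stress response element (ERSE), which ATF6 and XBP1 bind together with NF-Y, was searched on both strands as CCAAT, 9 bases of any kind and CCACG. It was found for 9 of the 28 members, Hspa5, Hsp90b1, Pdia6, Calr, Canx, Creld2, Dnajc3, Syvn1 and Derl3, and in 0.137% of the promoters of all 27025 genes. The related ERSE-II, ATTGG, 1 base of any kind and CCACG, was in 2 of the 28, Dnajb11 and Herpud1, and in 0.0444% of all genes. The XBP1 site TGACGTGG was in 1 member, Txndc5, and in 0.714% of all genes, and TTGCATCA, bound by ATF4 dimers, was in 1, Herpud1, and in 1.03%. In no member did matches to different motifs overlap. A match is a string of letters in these windows, and binding was not measured. The stretches below belong to the members on which the comparisons turn; each is read 5′ to 3′ on the gene's own strand, with the matched motif in capitals.
Hspa5: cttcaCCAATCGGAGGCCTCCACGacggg
Pdia6: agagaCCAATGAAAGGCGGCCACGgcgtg
Syvn1: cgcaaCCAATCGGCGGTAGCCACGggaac
Dnajc3: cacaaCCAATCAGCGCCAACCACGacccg
Calr: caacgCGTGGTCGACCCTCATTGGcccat
Herpud1, ERSE-II: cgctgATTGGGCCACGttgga
Herpud1, ATF4 motif: gcgggTTGCATCAgcccg
The Hspa5 stretch lies at chr2:34772020-34772048 (plus strand), with its motif ending 47 bases before the RefSeq start, and it overlaps the first exon of a longer Hspa5 transcript in GENCODE M21. The Pdia6 stretch is at chr12:17266486-17266514 (plus strand), that of Syvn1 at chr19:6046527-6046555 (plus) and that of Dnajc3 at chr14:118937822-118937850 (plus). The Calr motif runs in the reverse orientation at chr8:84847070-84847098 (minus strand). Both Herpud1 stretches, at chr8:94386372-94386392 and chr8:94386312-94386329 (plus), lie upstream of Herpud1 and within the annotated non-coding gene Gm15890.

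The members highest for their length differed between oocytes and hippocampus. The comparison is descriptive, since the tissues were normalised apart and their library protocols differed, so tissue and protocol cannot be told apart. Over the 6 oocyte libraries without rapamycin 1 and the 10 of hippocampus, 15 members had their whole range higher in hippocampus, 11 had it higher in oocytes and 7 overlapped. Of the 15907 genes tested in either tissue, 56.7% were apart and higher in hippocampus and 22.1% apart and higher in oocytes, 78.8% in all, so that the members' share apart is near the background. Relative to exon length, the highest oocyte levels were those of Creld2, an ER disulfide oxidoreductase (242 ± 37.1 CPM per kilobase, SD, n = 6), and P4hb, the prototype protein disulfide isomerase (224 ± 53.0), whose ranges overlapped. Dnajc3, a J-protein that assists BiP, followed at 117 ± 14.4 CPM per kilobase, and its range overlapped that of Txndc5 (85.4 ± 43.4). Txndc5 has 4492 exon bases but a longest transcript of 2843 bases, and Dnajc3 has 5141 by both lengths. The order of these 2 therefore depends on the length used. In hippocampus the order was led by the lectin chaperone Calr at 142 ± 18.7 CPM per kilobase (SD, n = 10), above the ranges of the next 4, Hsp90b1 (82.6 ± 11.4), Canx (76.2 ± 8.09), Hspa5 (73.7 ± 11.8) and Pdia3 (72.0 ± 10.6), which overlapped each other.

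Within the IRE1 branch the sensor and its substrate stood at opposite ends. Ern1 averaged 224 ± 66.4 CPM in oocytes (SD, n = 6) and 6.07 ± 2.68 CPM in hippocampus (SD, n = 10), a 36.8-fold difference. Xbp1 was covered by 27 counts over all 7 oocyte libraries, with 0 counts in young 2, aged 1 and aged 2 and at most 8 in any library, against 95.9 ± 18.5 CPM in hippocampus. Herpud1, an ER membrane protein of the degradation complex, had 2 to 6 counts per oocyte library and averaged 41.7 ± 5.14 CPM in hippocampus. Dnajb9, a BiP cochaperone, was 12.0-fold higher in hippocampus. Pdia5 was 42.2-fold higher in oocytes, Creld2 20.5-fold and Ppp1r15a, which directs dephosphorylation of eIF2α, 12.9-fold. The other sensors were at like levels, with Atf6 at 79.0 ± 12.1 and 81.9 ± 13.6 CPM, and Eif2ak3 at 23.4 ± 18.7 and 22.6 ± 5.27 CPM, in oocytes and hippocampus. Trib3, a pseudokinase induced by ATF4, had at most 2 counts per oocyte library and 13 in hippocampus.

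**Figure D1:**
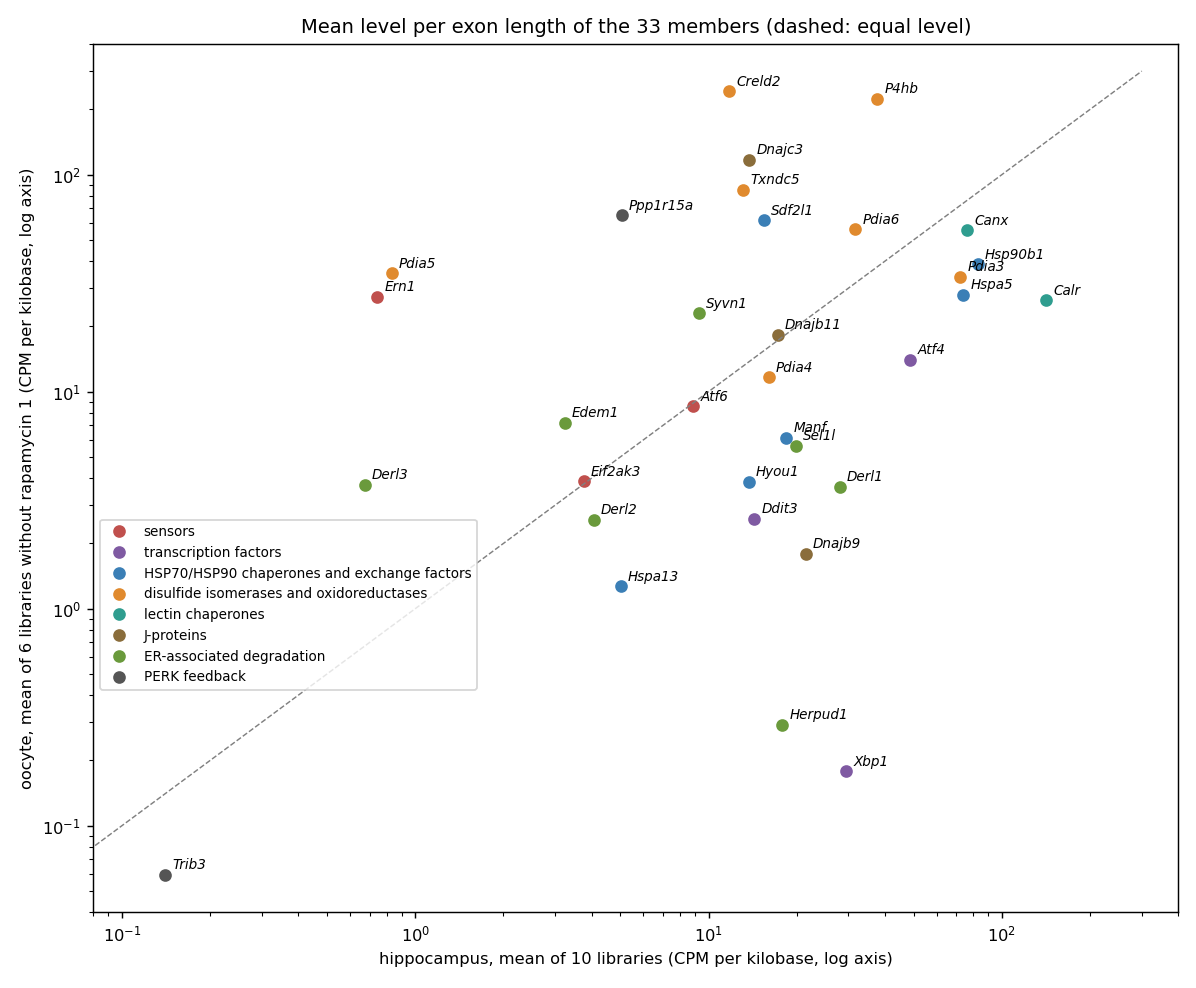
Mean level of each of the 33 members in hippocampus (x axis, 10 libraries) and in oocytes (y axis, 6 libraries without rapamycin 1), in CPM per kilobase of exon on log axes, coloured by role. Ern1 and Pdia5 lie far above the line of equal level and Xbp1 and Herpud1 far below it.

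The first comparison asked how ER genes of oocytes from aged females differ from those of young females. Pdia6 and Hspa5 had their highest levels in both young libraries. Pdia6, a disulfide isomerase that works with BiP, stood at 499.7 and 459 CPM in young, 90.8 and 86.7 CPM in aged and 8.06, 55.5 and 65.5 CPM in rapamycin oocytes. Both young libraries lay above all of the other 5. Its log2 fold change in aged against young oocytes was -2.43 ± 0.82 (SE) with all 7 libraries and -2.44 ± 0.23 without rapamycin 1. Hspa5 stood at 200.3 and 209 CPM in young, 36.1 and 80.7 CPM in aged and 27.4, 95.4 and 88.0 CPM in rapamycin oocytes. Again no older library reached the young ones. The log2 fold change of Hspa5 was -1.81 ± 0.66 with all libraries and -1.80 ± 0.36 without rapamycin 1.

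With all 7 libraries, edgeR called none of the 30 members tested, against 0.268% of the 10083 genes tested, and DESeq2 called none either, against 2.16%. In that edgeR fit, 3 members had an unadjusted p under 0.05, as had 11.5% of all genes. The adjusted p in edgeR was 0.327 for Pdia6 and 0.364 for Hspa5. Without rapamycin 1, edgeR called 3 of 30 members, 1 higher and 2 lower, against 11.4% of the 10220 genes tested (6.27% higher and 5.16% lower), a share near that background. An unadjusted p under 0.05 was found for 9 of 30 members and for 30.7% of these genes. Pdia6 (adjusted p = 0.00048) and Hspa5 (0.0174) fell in this edgeR fit, and Syvn1, the ubiquitin ligase HRD1 of ER-associated degradation, rose by 0.95 ± 0.26 on the log2 scale (adjusted p = 0.0433). Syvn1 stood at 75.6 and 66.1 CPM in young, 161 and 115 CPM in aged and 5.11, 132 and 119.8 CPM in rapamycin oocytes, so that only rapamycin 1 lay below the young libraries. With all libraries the log2 fold change of Syvn1 was 0.96 ± 1.09. The 3 genes carry the ERSE letters printed above, and 2 of them fell while 1 rose. Hsp90b1, Calr, Canx, Creld2, Dnajc3 and Derl3 carry such letters too and were not called without rapamycin 1.

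**Figure D2:**
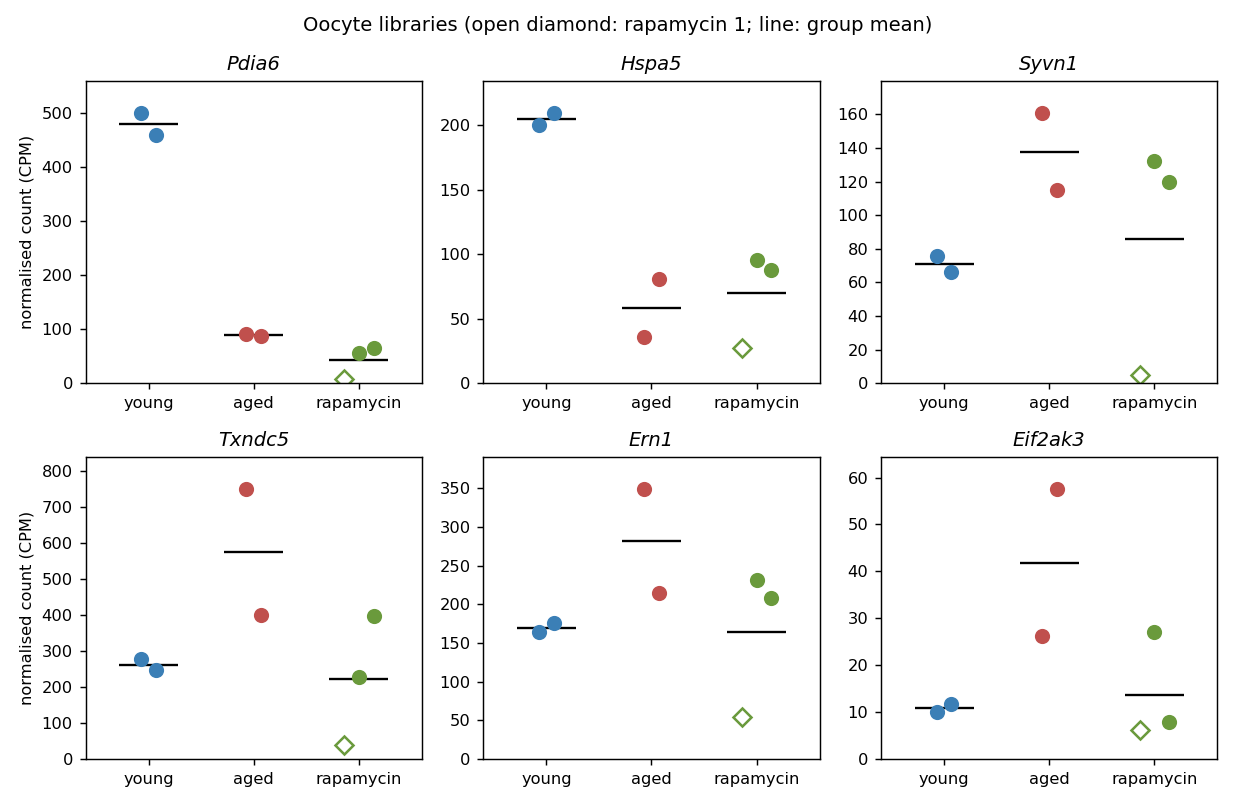
Normalised counts (CPM, y axis from 0) of 6 members in each oocyte library by group; points are libraries, lines group means and the open diamond rapamycin 1. Pdia6 and Hspa5 are highest in both young libraries, and rapamycin 1 is the lowest library in all 6 panels.

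No sensor passed in the edgeR fits with all libraries or without rapamycin 1. Eif2ak3, which encodes PERK, was at 10.0 and 11.6 CPM in young, 26.1 and 57.5 CPM in aged and 6.18, 27.1 and 7.83 CPM in rapamycin oocytes. Its log2 fold change in aged against young oocytes was 1.95 ± 0.78 with all libraries (edgeR adjusted p = 0.408) and 1.95 ± 0.58 without rapamycin 1 (0.0583). A fit of the young and aged groups alone called 5 of 30 members, against 12.5% of all genes, the 3 named above together with Eif2ak3 and Txndc5, a thioredoxin-like oxidoreductase. Txndc5 was at 278 and 246 CPM in young, 751 and 400.5 CPM in aged and 39.5, 227 and 398 CPM in rapamycin oocytes.

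Ern1 was at 164 and 175 CPM in young, 349 and 214 CPM in aged and 53.8, 232 and 208 CPM in rapamycin oocytes, with a log2 fold change of 0.73 ± 0.65 in aged against young with all libraries and 0.72 ± 0.26 without rapamycin 1 (edgeR adjusted p = 0.095). Atf6 was at 75.2 and 81.4, at 102 and 68.8 and at 33.9, 72.1 and 74.3 CPM in the same order, and its young and aged libraries overlapped. Among transcription factors, Atf4 was at 25.3 and 23.8 CPM in young, 29.4 and 40.5 CPM in aged and 49.2, 39.9 and 39.6 CPM in rapamycin oocytes. Both young libraries were the lowest for Atf4, and rapamycin 1 was here the highest library. Ddit3, the stress factor CHOP, was low, at 2.83 and 6.75, at 0.539 and 6.29 and at 1.61, 6.55 and 3.77 CPM. Its counts ran from 2 in aged 1, under the counting limit, to 58 in young 2.

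By role, differences in aged against young oocytes went both ways. The 30 tested members had a median log2 fold change of 0.10, against -0.012 over all genes; without rapamycin 1 these were 0.098 and -0.026. It was above 0 for all 3 sensors, 5 of 7 disulfide isomerases and oxidoreductases and 4 of 6 degradation genes, and below 0 for 3 of 6 HSP70 and HSP90 genes and 2 of 3 J-proteins. Without rapamycin 1 these counts were the same except for the HSP70 and HSP90 genes, of which 4 were below 0. Hsp90b1, with the same element as Hspa5 in its promoter, had -0.51, and Calr had 0.23, in both fits. Apart from the members named above, values ran from -1.76 for Dnajb9, at 3.92 and 7.79 CPM in young and 1.89 and 1.57 CPM in aged oocytes, to 1.02 for Derl3, a derlin, and without rapamycin 1 these were -1.78 and 1.00.

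Rapamycin against aged oocytes asked whether treatment of aged females moved these genes. Most members had a lower mean in the rapamycin group, and the difference was smaller without rapamycin 1. With all libraries, 25 of 30 tested members had a log2 fold change below 0 and the median was -0.51, against 0.014 over all genes. Without rapamycin 1 the same count was 19 of 30 and the median -0.18, against 0.017. In rapamycin 1, 25 of the 30 members had their lowest level of all 7 libraries (83.3%), as had 36.4% of the 10083 genes tested. The 33 members together summed to 969 CPM there and to 3504 to 4595 CPM in the other 6. What part the cumulus cell and oocyte markers of that library had in this was not tested.

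No member passed in rapamycin against aged oocytes, in edgeR with all libraries (0% of genes called), in edgeR without rapamycin 1 (0.0587%) or in DESeq2 (0.0862%). In edgeR, 2 members had an unadjusted p under 0.05 with all libraries, as had 5.98% of all genes, and 5 had it without rapamycin 1, as had 15.3%. With all libraries the smallest p-values were those of Eif2ak3, at -1.60 ± 0.68, and Hspa13, an HSP70-like ATPase of microsomes, at -1.27 ± 0.54 (edgeR adjusted p = 0.73 for both). Hspa13 was at 9.7 and 15.1 CPM in aged and 3.23, 3.87 and 8.14 CPM in rapamycin oocytes, and these ranges did not overlap. Young oocytes, at 8.28 and 6.86 CPM, were below both aged libraries and overlapped the rapamycin ones. Next came Derl2, a derlin of the degradation channel, at -0.90 ± 0.50. It was at 17.9 and 17.4 CPM in young, 27.5 and 25.4 CPM in aged and 6.45, 18.0 and 17.8 CPM in rapamycin oocytes. Without rapamycin 1, Eif2ak3 had -1.25 ± 0.56, Hspa13 -1.03 ± 0.48 and Derl2 -0.54 ± 0.31, and none of them was among the 5 of unadjusted p under 0.05. Those 5 were P4hb (-0.69 ± 0.19), Txndc5 (-0.85 ± 0.33) and Pdia6 (-0.53 ± 0.22), with log2 fold changes below 0, and Pdia4 (0.82 ± 0.30) and Dnajb9 (1.84 ± 0.69), with values above 0. None of the 5 passed the test, and Dnajb9 rests on 7 counts in each aged library.

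Rapamycin against young oocytes showed low Pdia6 again. This comparison shares its young libraries with the first and its rapamycin libraries with the second. The log2 fold change of Pdia6 was -3.47 ± 0.73 with all libraries (edgeR adjusted p = 0.168) and -2.97 ± 0.23 without rapamycin 1 (0.00017). With all libraries, edgeR called 0 of 30 members (0.426% of all genes), with 2 at an unadjusted p under 0.05 (8.91% of all genes), while DESeq2 called Pdia6 (1.93% of genes). Without rapamycin 1, edgeR called Pdia6 as the only one of 30 (2.97% of genes), with 5 at an unadjusted p under 0.05 (15.9%). Hspa5 had -1.54 ± 0.58 with all libraries and -1.15 ± 0.35 without rapamycin 1, and Atf4 had 0.80 ± 0.36 and 0.71 ± 0.30. The median over members was -0.35 with all libraries and 0.014 without rapamycin 1, where 15 members were above and 15 below 0.

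**Figure D3:**
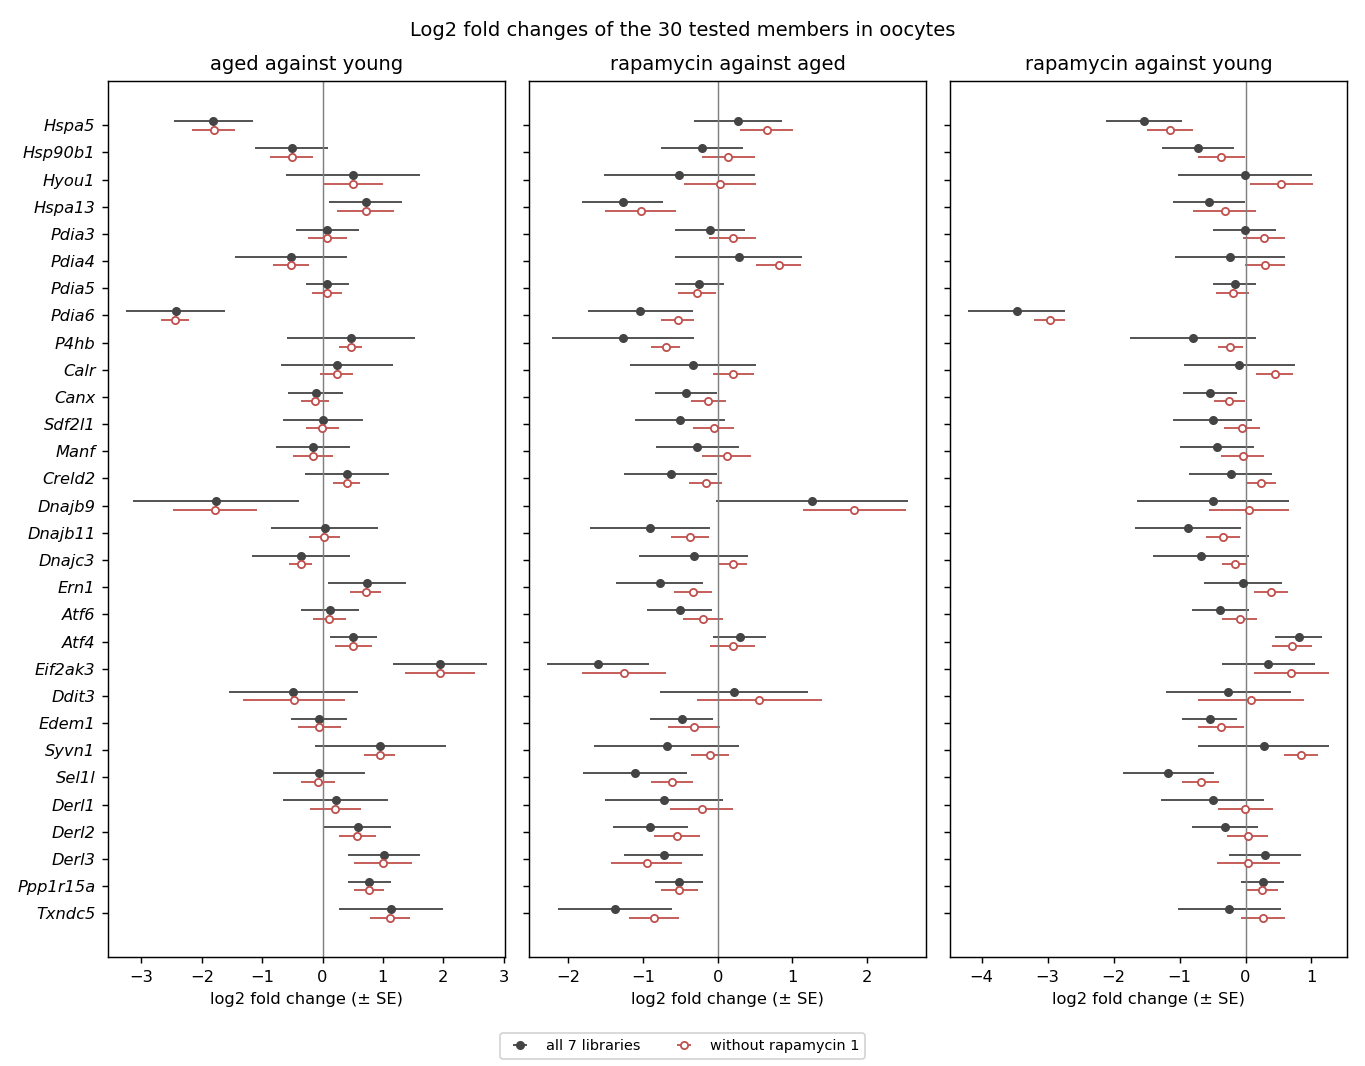
Log2 fold change (x axis, ± SE from edgeR) of the 30 tested members in the 3 oocyte comparisons, with all 7 libraries (filled) and without rapamycin 1 (open). Pdia6 and Hspa5 are lowest in aged against young oocytes under both fits, and in both rapamycin comparisons most open points lie to the right of the filled ones.

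Beyond the members, 103 other genes of ER import, glycosylation, folding, degradation and the integrated stress response were counted. In oocytes 82 of them were tested and edgeR called none in any of the 3 comparisons with all libraries, with 9, 6 and 6 at an unadjusted p under 0.05 for aged against young, rapamycin against aged and rapamycin against young, beside 11.5%, 5.98% and 8.91% of all genes. Without rapamycin 1, edgeR called 3 higher and 7 lower of 80 in aged against young oocytes, a share near the 11.4% of all genes. Higher were Sec61a1, the pore of the translocon, at 1.90 on the log2 scale, Serp1 at 1.03 and the mitochondrial enzyme Shmt2 at 0.95. Sec61a1 was at 85.0 and 70.6 CPM in young and 416 and 170 CPM in aged oocytes. Lower were Dad1, a subunit of the oligosaccharyltransferase, at -1.75, the oxidative stress factor Nfe2l2 at -1.74, Srp54a at -1.68, Cebpg at -1.10, P4ha1 at -1.07, Selk at -0.96 and Sec11a at -0.88. Dad1 was at 137 and 85.6 CPM in young and 29.4 and 37.1 CPM in aged oocytes. Srp54a, of the signal recognition particle, was also lower in rapamycin against young oocytes in that fit (-1.93, 1 of 80, against 2.97% of all genes). It has near-identical copies in the mouse genome, so its count is uncertain.

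In hippocampus of offspring no member passed in any comparison. Of 32 members tested, edgeR called 0 for aged against young mothers (0.0471% of 14877 genes called), 0 for rapamycin against aged mothers (0%) and 0 for rapamycin against young mothers (0.0538%), with 1, 1 and 4 members at an unadjusted p under 0.05, as had 3.51%, 4.52% and 3.63% of all genes. DESeq2 called none either, against 0.309%, 0.079% and 0.183% of its genes. Log2 fold changes of members ran from -0.39 to 0.32 for aged against young mothers, from -0.49 to 0.90 for rapamycin against aged mothers and from -0.43 to 0.60 for rapamycin against young mothers. The member medians of -0.00079, -0.094 and -0.059 in the 3 comparisons lay beside -0.011, 0.019 and 0.0074 over all genes. In such bulk tissue, fewer cells of a type and less RNA per cell cannot be told apart.

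Herpud1 had the smallest p in the first 2 of these comparisons. It was at 37.4, 43.6, 37.2 and 37.1 CPM in offspring of young mothers, 48.8, 49.3 and 47.7 CPM in those of aged mothers and 38.6, 38.3 and 38.6 CPM in those of rapamycin-treated mothers. All 3 libraries of aged mothers were above the other 7. The log2 fold change was 0.32 ± 0.10 for aged against young mothers (edgeR adjusted p = 0.990) and -0.34 ± 0.11 for rapamycin against aged mothers (edgeR adjusted p = 0.796), 2 comparisons that share the libraries of aged mothers. With the ribosomal protein mRNA level as a covariate they were 0.30 and -0.29. The 10 immediate early genes, such as Fos and Arc, summed to 290 to 448 CPM in offspring of young mothers, 802 to 1316 CPM in those of aged mothers and 843 to 999 CPM in those of rapamycin-treated mothers. Their part in the Herpud1 difference was not tested.

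Among sensors, Ern1 was at 6.63, 2.17, 8.6 and 4.7 CPM in offspring of young mothers, 4.28, 3.83 and 5.37 CPM in those of aged mothers and 11.0, 5.41 and 8.75 CPM in those of rapamycin-treated mothers. Eif2ak3 was at 24.1, 17.5, 26.4 and 16.7, at 16.1, 19.2 and 24.0 and at 32.3, 22.7 and 27.5 CPM in the same order. For rapamycin against aged mothers their log2 fold changes were 0.90 ± 0.43 and 0.47 ± 0.22 (edgeR adjusted p = 0.796 for both). The Ern1 ranges were just apart and those of Eif2ak3 overlapped. Atf6 was at 79.5, 59.3, 99.5 and 94.5, at 74.3, 76.8 and 75.2 and at 88.0, 70.5 and 102 CPM, and all 3 groups overlapped. Hspa5 was at 357, 359, 247 and 314, at 392, 290 and 305 and at 338, 261 and 252 CPM, with log2 fold changes from -0.21 to 0.04.

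The transcription factors of the response also overlapped between groups. Xbp1 was at 94.0, 118, 71.9 and 88.7 CPM in offspring of young mothers, 114, 101 and 97.3 CPM in those of aged mothers and 86.7, 121 and 66.2 CPM in those of rapamycin-treated mothers. Atf4 was at 103, 142, 90.9 and 112, at 123, 128 and 117 and at 107, 127 and 101 CPM in that order, and Ddit3 at 24.1, 30.4, 17.9 and 20.2, at 26.8, 31.0 and 23.1 and at 17.4, 33.2 and 21.3 CPM. All 3 had log2 fold changes between -0.19 and 0.22 in all 3 comparisons.

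**Figure D4:**
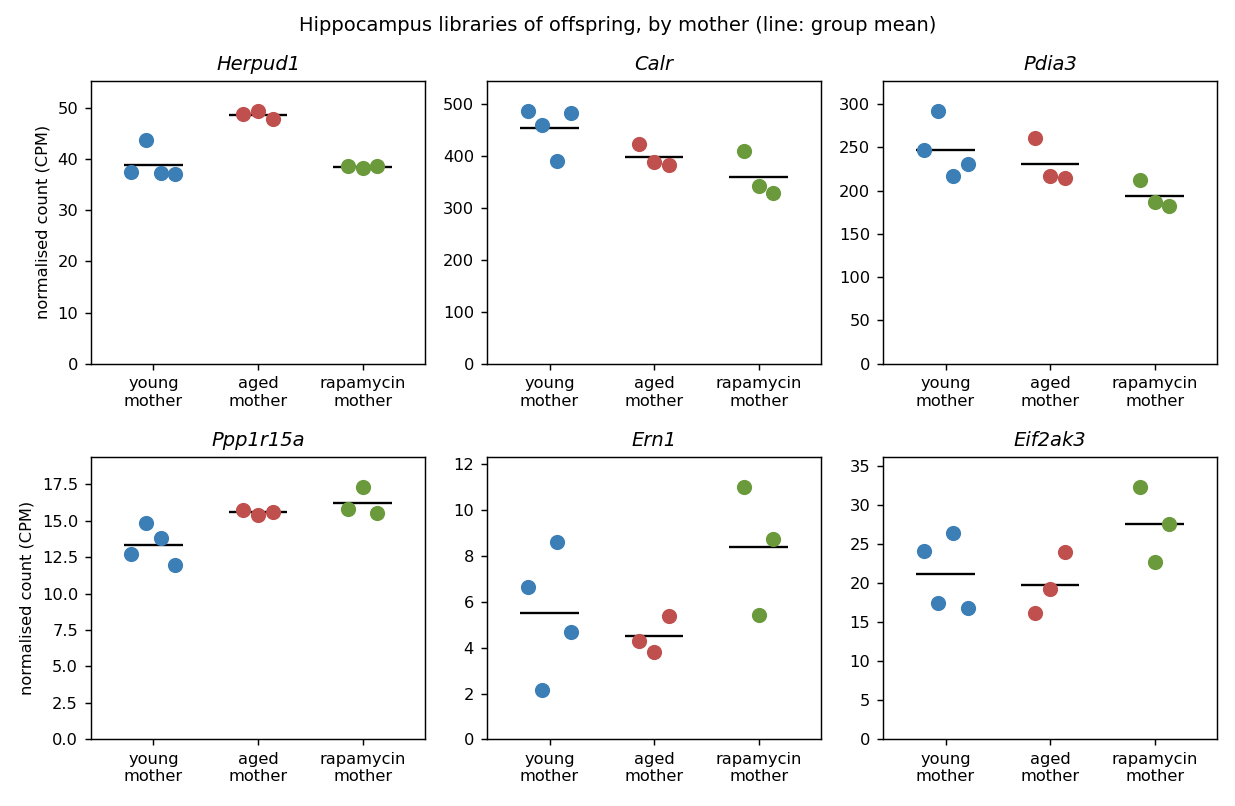
Normalised counts (CPM, y axis from 0) of 6 members in each hippocampus library by the mother's group; points are libraries and lines group means. All 3 libraries of aged mothers lie above the other 7 for Herpud1, while the groups overlap for Eif2ak3.

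In offspring of rapamycin-treated against young mothers the smallest p-values were those of Calr, Pdia3 and Ppp1r15a, none of which passed the test. Calr was at 485, 458, 389.9 and 482 CPM in offspring of young mothers, 422, 387 and 382 CPM in those of aged mothers and 408, 342 and 328 CPM in those of rapamycin-treated mothers, a log2 fold change of -0.34 ± 0.13. Pdia3, the disulfide isomerase that partners both lectins, was at 247, 292, 217 and 231, at 260, 216 and 215 and at 212, 187 and 182 CPM, or -0.35 ± 0.14. The rapamycin libraries were below all those of young mothers for Pdia3, while 1 library of young mothers was among them for Calr. Ppp1r15a was at 12.7, 14.9, 13.8 and 12.0, at 15.7, 15.4 and 15.6 and at 15.8, 17.3 and 15.5 CPM, or 0.28 ± 0.12. Its libraries of untreated and of rapamycin-treated aged mothers were above all 4 of young mothers. The edgeR adjusted p was 0.999 for each of the 3. Syvn1 was at 48.7, 36.0, 54.2 and 55.3 CPM in offspring of young mothers and 39.0, 38.1 and 37.7 CPM in those of aged mothers. In those of rapamycin-treated mothers it was at 56.5, 34.9 and 49.3 CPM, and all 3 groups overlapped.

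Of the 103 other ER and stress genes, 101 were tested in hippocampus and edgeR called 0 in each comparison, with 5, 4 and 2 at an unadjusted p under 0.05. Over all genes 0.0471%, 0% and 0.0538% were called and 3.51%, 4.52% and 3.63% had such a p, so these counts are near or below the background. The smallest p-values for aged against young mothers were those of Atf3, a stress-induced transcription factor, at 1.68 ± 0.39 (edgeR adjusted p = 0.516), and Ddit4, an inhibitor of mTOR signalling, at 0.59 ± 0.15 (0.596). Both were higher in all 3 libraries of aged mothers than in all 4 of young mothers. Atf3 was at 0.402 to 1.49 CPM in offspring of young and 1.89 to 3.38 CPM in those of aged mothers. DESeq2 called 1 of these genes, Atf3 (adjusted p = 0.0219), against 0.309% of all its genes. The immediate early genes divided the same libraries, at 290 to 448 CPM for young and 802 to 1316 CPM for aged mothers. Their part in the Atf3 and Ddit4 differences was not tested. For rapamycin against aged mothers Ddit4 was at -0.47 ± 0.16 and the ER-bound factor Creb3l2 at 0.73 ± 0.26, neither of which passed.

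Whether members moved together from library to library was asked with Hspa5 as the reference over the 10 hippocampus libraries. Pdia4, a disulfide isomerase, had the highest Pearson's r, at 0.892, with Spearman's rho at 0.842. This was the only one of 31 members to pass (adjusted permutation p = 0.0127 for r, and 0.066 for rho, which did not pass). Next came Pdia3 (r = 0.807), Hsp90b1 (0.792), Dnajc3 (0.777), Pdia6 (0.761) and Calr (0.734), with adjusted permutation p-values between 0.0686 and 0.0878. Other folding genes of the lumen had lower values, from Dnajb11 (0.683), P4hb (0.637) and Sdf2l1 (0.541) down to Hspa13 (0.293), Pdia5 (0.080), Hyou1 (-0.015) and Txndc5 (-0.377). An r above 0.8 was found for 2 of 31 members and for 0.134% of all genes tested. The median r was 0.36 over members and -0.020 over all genes. Without the 2 libraries farthest from the median of Hspa5, young mother 3 and aged mother 1, r was 0.884 for Pdia4 and 0.877 for Pdia3. On deviations from group means, tested exactly over 864 orders within groups, Pdia3 (r = 0.884) and Pdia6 (0.856) passed at an adjusted permutation p of 0.0359 and Pdia4 (0.889) did not, at 0.0628. The 10 libraries share depth and dissection, and genes are not independent of each other. Of Hspa5 and these 6 genes, the exact ERSE letters were found in the promoters of Hspa5, Hsp90b1, Dnajc3, Pdia6 and Calr, and were not in the windows of Pdia4 and Pdia3. The remaining members with these letters, Creld2, Canx, Syvn1 and Derl3, had an r of 0.6145, 0.385, -0.133 and -0.144 with Hspa5. A relation between the letters and r was not tested.

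Another axis ran across the same libraries. The mean log2 CPM of 73 cytosolic ribosomal protein genes ranged from 6.76 in rapamycin mother 1 to 8.36 in young mother 2, within as well as between groups. Of 32 members, 13 followed it at an adjusted permutation p under 0.05, a relation looked at after the data had been seen. Positive were Ddit3 (r = 0.928), Manf (0.917), Sdf2l1 (0.890), Atf4 (0.856), Xbp1 (0.827) and Creld2 (0.737), and negative were Hyou1 (-0.929), Syvn1 (-0.895), Sel1l (-0.884), Ern1 (-0.879), Atf6 (-0.801), Eif2ak3 (-0.775) and Edem1 (-0.727). All 13 had an r above 0.7 or below -0.7, as had 22.3% and 21.6% of all genes, so the members' share is near the background. Among these 13, exon length divided the 2 sides, at 1108 to 3524 bases for the positive and 4859 to 9231 bases for the negative members. The split was seen after the fact, and whether length goes with r over all genes was not tested. The other members did not all follow this split. Derl2, of 8049 bases, had an r of 0.364, and Derl1, of 3328 bases, had -0.551. Oligodendrocyte markers varied as well, at 3021 to 9698, 4087 to 9862 and 2635 to 9654 CPM in offspring of young, aged and rapamycin-treated mothers. They were at 7635 to 9862 CPM in young mother 2, rapamycin mother 2, aged mother 1 and aged mother 2. These libraries had the highest ribosomal levels, 8.05 to 8.36 log2 CPM. All others had 2635 to 4746 CPM of these markers and ribosomal levels of 6.76 to 7.73. The part of these markers in the axis was not tested. On deviations from group means r was of like size, for example 0.940 for Ddit3, 0.906 for Manf, -0.932 for Hyou1 and -0.905 for Ern1. No member passed there, the lowest adjusted exact permutation p being 0.0556, in a test whose smallest possible unadjusted p is 0.001157. Spearman's rho passed for 14 members, and r without young mother 2 and rapamycin mother 1 was 0.902 for Ddit3. Hspa5 itself had an r of 0.223 with this level. After this level was regressed out of each gene, 2 members passed in correlation with Hspa5. These were Pdia4 (r = 0.894, adjusted permutation p = 0.0195) and Dnajc3 (0.860, 0.0428). Hyou1 then had an r of 0.534 with Hspa5, Hspa13 0.4625, Pdia5 0.110 and Txndc5 -0.461, none of which passed.

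**Figure D5:**
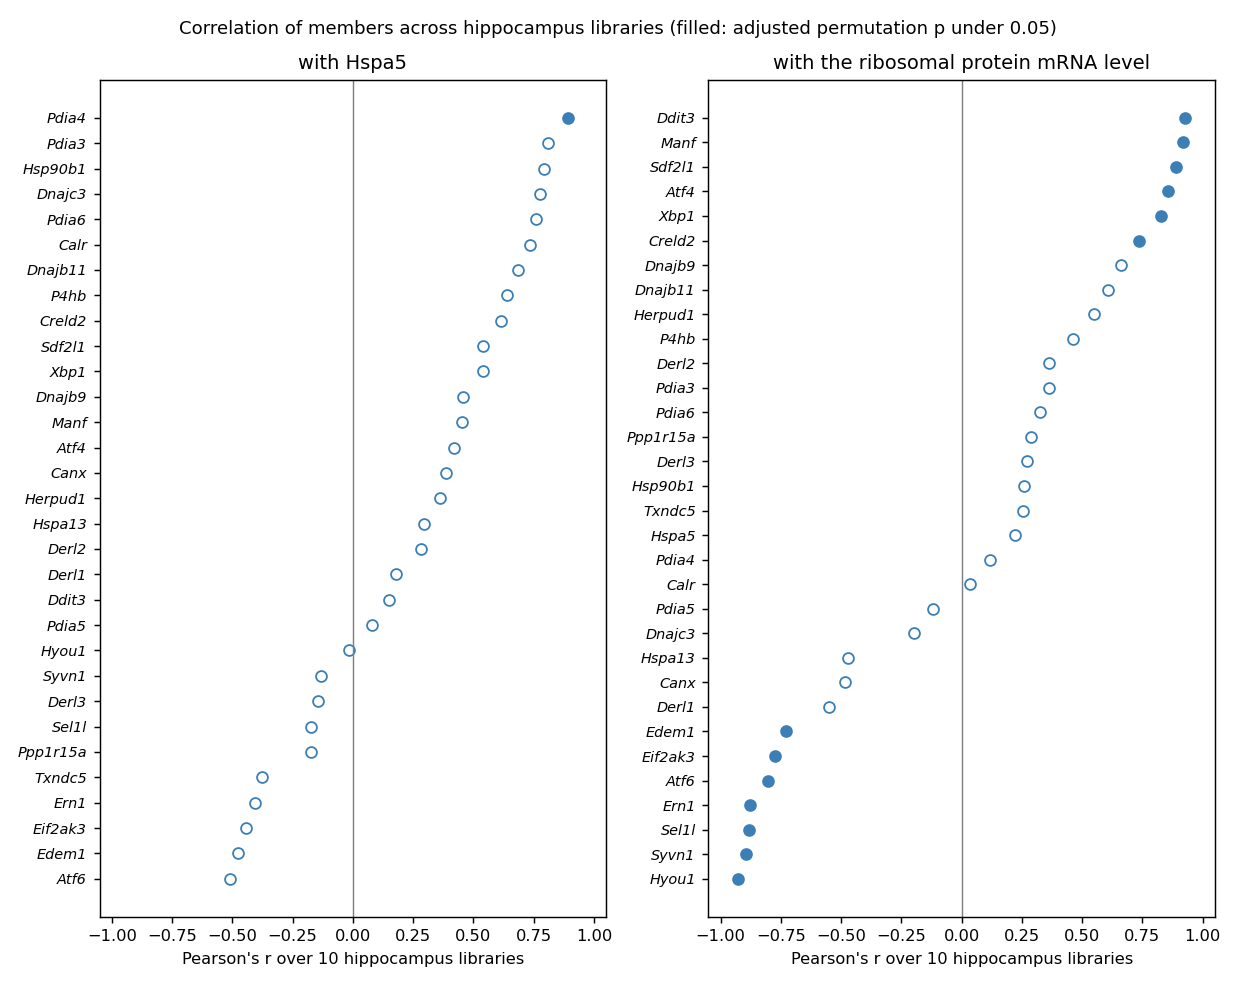
Pearson's r over the 10 hippocampus libraries of each tested member with Hspa5 (left) and with the mean level of ribosomal protein mRNAs (right), filled where the adjusted permutation p was under 0.05. Pdia4 leads the left panel at 0.892, and on the right 6 members are filled on the positive and 7 on the negative side.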

How the data were processed

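Each library is a table of read counts per gene, deposited by the authors without normalization. Per the submitters' processing notes, STAR and HTSeq were used with build mm10; the annotation, the strand setting and tool versions are not given in the sources used, and reads of overlapping or antisense genes cannot be told apart. HTSeq's 5 summary lines were kept out of library sizes: no feature took 6.09% to 16.0% of a library's total, multiple alignment 5.09% to 15.9% and ambiguity 1.26% to 1.92%. Design text mentions 9 oocyte samples; 7 were given and others are not analysed here.

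Each tissue was fitted alone over its 3 groups with the edgeR quasi-likelihood F-test (filterByExpr, TMM scaling, Benjamini-Hochberg over all genes tested, threshold 0.05). CPM are TMM-normalised, ± is the SD for levels and the SE for log2 fold changes. The coefficient of biological variation came to 23.5% in hippocampus and 49.5% in oocytes (28.1% without rapamycin 1). Correlations used log2(CPM + 0.5), 100000 permutations and adjustment over the members compared. Exon lengths came from GENCODE M21 on GRCm38, which may differ from the authors' annotation. The fit was tested on simulated data. Replicates differed by more than sampling noise (chi-square per degree of freedom at least 12.8).

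The members, the wider gene list and the marker lists were chosen with earlier results of these data known. Values in every library of the tissue compared are given for members called in either fit and for the 3 of smallest p per comparison. They are also given for Hspa5, the sensors and Xbp1, Atf4 and Ddit3, except that Xbp1 in oocytes is summarised by its counts. Of the wider list, genes called, or else those of smallest p, are named. P4hb, Pdia4, Txndc5, Dnajb9 and Derl3 in oocytes and the members named by their tissue level were chosen after their values were seen. Gdf9, Tcl1, Inha, Gja1, Fos and the like only illustrate marker lists. Alternatives were relative log expression scaling, no low-count filter, only the 2 groups compared, DESeq2, a replicate block, each library left out, a ribosomal protein covariate, and the longest transcript in place of the exon union. Software comprised Python 3.11.15, matplotlib 3.10.9 and R 4.3.3 with the packages DESeq2 1.42.0, limma 3.58.1 and edgeR 4.0.16.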

Additional observations from a re-analysis of the deposited data

Results flagged for a closer look

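In the 4 libraries of offspring of young mothers, the only group large enough for this check, 2 of 33 members had a library far from the other 3. Herpud1 stood at 43.6 CPM in young mother 2, against 37.1 to 37.4 CPM in the others, and Trib3 at 0.804 CPM in the same library, against 0.235 to 0.258 CPM. Chance marks about 1 in 20 genes in this way. Young mother 2 also had the highest ribosomal protein mRNA level of the 10 hippocampus libraries, at 8.36 log2 CPM, and its part was not tested. Trib3 rests on 13 counts there.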

How the results depend on the processing

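Of 264 values of named members under alternatives, 253 kept their direction and side of the threshold, 11 passed only under the alternative and none reversed; all 11 are in oocytes. For aged against young oocytes, 0 members called became 1 without the low-count filter and 5 with only those groups, and leaving out 1 library gave 0 to 3; the 27 genes called became 167, 1177 and, in DESeq2, 240, and 0 to 1168 with 1 library left out (0 without either young or either aged library, 13 and 10 without rapamycin 2 and 3). For rapamycin against aged oocytes, 0 genes called became 11 without the filter, 11 in DESeq2 and 0 to 6 with 1 library left out. For rapamycin against young oocytes, 0 members called became 1 without the filter, 1 in DESeq2 and 0 to 1 with 1 library left out, and the 43 genes called became 179, 221 and 0 to 304, or 14 with only those groups. Without rapamycin 1, 3 members and 1168 genes, 0 members and 6 genes, and 1 member and 304 genes were called in these 3 comparisons. In hippocampus, genes called for aged against young mothers went from 7 to 2 with only those groups, 50 in DESeq2, 11 with the ribosomal covariate and 0 to 15 with 1 library left out (15 without young mother 2, 0 without young mother 1), and the member median from -0.00079 to between -0.094 and 0.020. For rapamycin against aged mothers they went from 0 to 2, 11 in DESeq2 and 0 to 1, and the median from -0.094 to -0.014 with the covariate and to between -0.12 and -0.027. For rapamycin against young mothers they went from 8 to 5, 31, 16 with the covariate and 2 to 10 (2 without young mother 1), and the median from -0.059 to between -0.12 and -0.040. Members that followed Hspa5 went from 1 to 2 on deviations from group means and 2 after the ribosomal level, and those that followed the ribosomal level from 13 to 0 on deviations, where r was of like size (0.940 against 0.928 for Ddit3). The cause was not tested, except that fewer libraries enter some fits; a lone library of a group was assumed to vary like the others.

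Whether replicate numbers pair the libraries was not settled. Deviations from group means correlated across groups at -0.095 to 0.0056 for same-numbered oocyte libraries and at -0.16 to 0.16 for differently numbered ones. In hippocampus these ranges were -0.21 to 0.68 and -0.64 to 0.58. In groups of 2 libraries the deviations mirror each other, so the oocyte values can show little. With the replicate block, genes called went from 27 to 1 and 43 to 0 in oocytes against young, and from 8 to 4 for rapamycin against young mothers; no member was called.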
